A study of Homo sapiens with 4 samples.

Results

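Inflammasomes are protein platforms that assemble in the cytosol of myeloid cells when a sensor meets a microbial product or a sign of damage. The sensors NLRP1, NLRP3, NLRC4 and AIM2 act through the adaptor PYCARD (also called ASC) or directly, and recruit the protease CASP1, which matures the cytokines IL-1β and IL-18. CASP4 and CASP5 bind bacterial lipopolysaccharide inside the cell in a route without such a platform. All 3 caspases can cut GSDMD, whose freed fragment forms pores in the plasma membrane and leads to the lytic death called pyroptosis. These 9 genes were chosen by symbol, and are 9 of the 18132 genes with a probe set on the arrays.

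RNA of 2 human cell lines was measured on 4 PrimeView expression arrays, with 1 array for each condition. The conditions were MDS-L with DAC, MDS-L with DMSO, SKM-1 with DAC and SKM-1 with DMSO. DAC is decitabine, a cytidine analog that enters DNA and lowers DNA methylation. It was given at 1 µM in 5 pulses of 24 h over 5 days, and DMSO is the solvent control. MDS-L comes from a patient with myelodysplastic syndrome (MDS) and was kept in medium with IL-3 at 100 U/ml, also in its DMSO control. SKM-1 is a leukemia line that arose from MDS, and no IL-3 is named for it. Each line stands for 1 source of cells, and no condition had a second array.

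Values are log2 expression values as the authors deposited them. Olfactory receptor genes, which blood cells are not expected to use, gave the background: the 90th percentile of their 359 probe sets on each array. This level was 5.09 for MDS-L with DAC, 4.84 for MDS-L with DMSO, 5.07 for SKM-1 with DAC and 4.88 for SKM-1 with DMSO. The 9 members had 32 probe sets with 1 gene symbol, from 2 to 9 each, and the brightest probe set stood for the gene. Of the 9 members, 6 lay above background on all 4 arrays, and NLRC4, AIM2 and CASP5 lay above it on none. No difference within a cell line could be tested with 1 array a condition. The only yardstick is the spread between probe sets of a gene, whose pooled SD was 0.27 in the DAC minus DMSO differences of 7609 genes in MDS-L and 0.28 in those of 7642 genes in SKM-1. It covers probes and not cultures.

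Several cell type markers moved with DAC in the same arrays. For comparison, 53.7% of all measured genes were higher with DAC in MDS-L, and 3.62% at least 2-fold. In SKM-1 these shares were 54.8% and 2.71%. Of the monocyte and macrophage markers measured in MDS-L, 8 of 8 were higher with DAC, 4 of them at least 2-fold, and the summed level of the 9 markers was 11.48 with DAC and 10.60 with DMSO (log2). In SKM-1, 5 of 6 were higher and none 2-fold, with a summed level of 12.34 with DAC and 11.87 with DMSO. CD14 lay below background on both SKM-1 arrays and VCAN on all 4 arrays. Of the T and NK cell markers, 4 of 4 measured in MDS-L were higher with DAC and 2 at least 2-fold. Of the 2 measured in SKM-1, 1 was higher and 1 lower, neither 2-fold. CD3D was 8.91 in MDS-L with DAC and 3.98 with DMSO, at least 16.7-fold higher, and CD2 was at least 2.70-fold higher, while CD3G stayed below background. The progenitor markers were above background in MDS-L in 4 of 4 cases with either treatment, and 3 of the 4 were lower with DAC, CD34 by 1.79-fold. In SKM-1, by contrast, all 3 progenitor markers measured were higher with DAC, and KIT was below background on both arrays. Of the 4 megakaryocyte markers in MDS-L, 3 were higher with DAC and 1 was lower. PPBP was 4.40-fold higher, the only one past 2-fold, while ITGA2B, the highest of them, was 11.47 with DAC and 11.52 with DMSO. Of the 3 megakaryocyte markers measured in SKM-1, 2 were higher and 1 lower, none 2-fold. The 3 erythroid and 2 B cell markers measured were also all higher with DAC in both lines, none of them 2-fold. Granule proteins were higher for 2 of 3 measured in MDS-L, but lower for 4 of 5 in SKM-1. The part of these markers in the results that follow was not tested, and in bulk RNA a change in the number of cells of a type and in the RNA per cell cannot be told apart.

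DAC lowers DNA methylation, which in human cells sits mostly on CG pairs, so the CG pairs before the start of the members are shown first. Promoter sequence was found for 6 of the 9 members in RefSeq (GRCh38.p14), and not for NLRP1, CASP1 and GSDMD. The 250 bases before the start are printed 5′ to 3′ on the gene's own strand, with each CG pair in capitals. PYCARD is shown as the CG-richest of the 6, NLRP3 and CASP4 as the members with the highest differences in MDS-L, and CASP5 as a gene below background with no CG pair. PYCARD lies at chr16:31202761-31203010 (minus strand), NLRP3 at chr1:247415923-247416172 (plus strand), CASP4 at chr11:104968575-104968824 (minus strand) and CASP5 at chr11:105023169-105023418 (minus strand).
PYCARD: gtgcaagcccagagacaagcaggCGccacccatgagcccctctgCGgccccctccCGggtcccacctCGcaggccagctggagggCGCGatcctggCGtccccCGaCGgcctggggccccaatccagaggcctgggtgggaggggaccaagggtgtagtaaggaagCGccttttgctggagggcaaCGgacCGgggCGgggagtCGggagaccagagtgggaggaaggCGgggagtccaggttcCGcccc
NLRP3: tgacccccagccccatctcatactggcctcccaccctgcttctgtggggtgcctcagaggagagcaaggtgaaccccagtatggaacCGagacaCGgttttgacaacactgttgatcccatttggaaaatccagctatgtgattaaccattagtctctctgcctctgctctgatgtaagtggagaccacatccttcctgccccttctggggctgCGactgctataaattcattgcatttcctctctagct
CASP4: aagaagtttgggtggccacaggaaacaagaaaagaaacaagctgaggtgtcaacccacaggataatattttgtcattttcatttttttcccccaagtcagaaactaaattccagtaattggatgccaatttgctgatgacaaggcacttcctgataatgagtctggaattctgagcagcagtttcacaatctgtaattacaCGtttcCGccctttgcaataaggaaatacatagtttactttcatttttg
CASP5: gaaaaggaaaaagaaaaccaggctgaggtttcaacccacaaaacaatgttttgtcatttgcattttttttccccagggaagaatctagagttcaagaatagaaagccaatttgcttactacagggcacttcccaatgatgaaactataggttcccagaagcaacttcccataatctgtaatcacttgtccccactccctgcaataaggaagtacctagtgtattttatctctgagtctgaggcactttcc
The PYCARD stretch held 16 CG pairs, more than 59.0% of the 35116 promoters of the same length, whose median was 11. NLRP3 held 3, CASP4 held 2 and AIM2 held 2, and the 3 starts of NLRC4 held 2, 5 and 2. The arrays measured RNA, and no methylation value of these CG pairs was analysed here.

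Short motifs were also looked for on both strands of the same stretches. The ISRE motif GAAANNGAA of interferon-activated factors had 2 matches before CASP5, 1 before AIM2 and 1 before the third NLRC4 start, and 6.88% of all promoters held one. The GAS motif TTCNNNGAA of STAT factors had 1 match, 100 bases before CASP5, and 6.57% of promoters held one. The NF-kB motif GGANTTTCC had 1 match, 127 bases before NLRP3, and was present in 1.45% of promoters. The SP1 motif GGGCGG had 2 matches before PYCARD and 1 before CASP4, and was present in 42.6% of promoters. None of these matches overlapped one of another motif. They describe letters, not sites of binding.

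The first comparison asked whether DAC changed the RNA of the sensors. NLRP1, which in human cells guards against viral proteases and other stress, was 7.04 in MDS-L with DAC and 6.44 with DMSO. In SKM-1 it was 5.81 with DAC and 5.71 with DMSO. NLRP1 was thus 1.51-fold higher with DAC in MDS-L, but 1.07-fold in SKM-1, and only the MDS-L difference was wider than the spread between probe sets. The other 2 NLRP1 probe sets lay below the background level, except for 1 value of 4.89 in MDS-L with DMSO, where the level was 4.84. A further probe set, which the annotation gives to NLRP1 and LOC728392 together and which was not used for the gene, was 6.67 with DAC and 4.91 with DMSO in MDS-L, against 5.15 with DAC and 5.07 with DMSO in SKM-1.

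NLRP3, the sensor of potassium loss and of many forms of membrane damage, ran in opposite directions in the cell lines. It was 7.83 in MDS-L with DAC and 7.14 with DMSO, which is 1.61-fold higher. In SKM-1 it was 7.19 with DAC and 7.65 with DMSO, which is 1.37-fold lower. The second NLRP3 probe set gave the same directions, with a log2 difference of 0.46 in MDS-L against −0.84 in SKM-1. With 1 array per condition, the difference between the lines was not tested.

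The other sensors had no level above background. NLRC4, which with NAIP proteins detects flagellin and bacterial secretion parts, was 3.90 with DAC and 3.76 with DMSO in MDS-L, and 4.78 with DAC and 4.72 with DMSO in SKM-1. AIM2, a sensor of double-stranded DNA in the cytosol, was 4.37 with DAC and 2.75 with DMSO in MDS-L, and 3.44 with DAC and 3.25 with DMSO in SKM-1. Both AIM2 probe sets were higher with DAC in MDS-L, by 1.62 and 1.14 on the log2 scale before any background level was applied. All 4 of those values were under the background level, so no fold change is given for AIM2.

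PYCARD, the adaptor that joins sensors to CASP1, was well above background on every array. It was 9.76 in MDS-L with DAC and 10.11 with DMSO, 1.27-fold lower. The SKM-1 values were 10.72 with DAC and 10.53 with DMSO, 1.14-fold higher, which is within the spread between probe sets. The second probe set of PYCARD differed by −0.37 in MDS-L, but by 0.67 in SKM-1. PYCARD was the only one of the 6 measured members that was lower with DAC in MDS-L, as NLRP3 was in SKM-1.

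**Figure D1:**
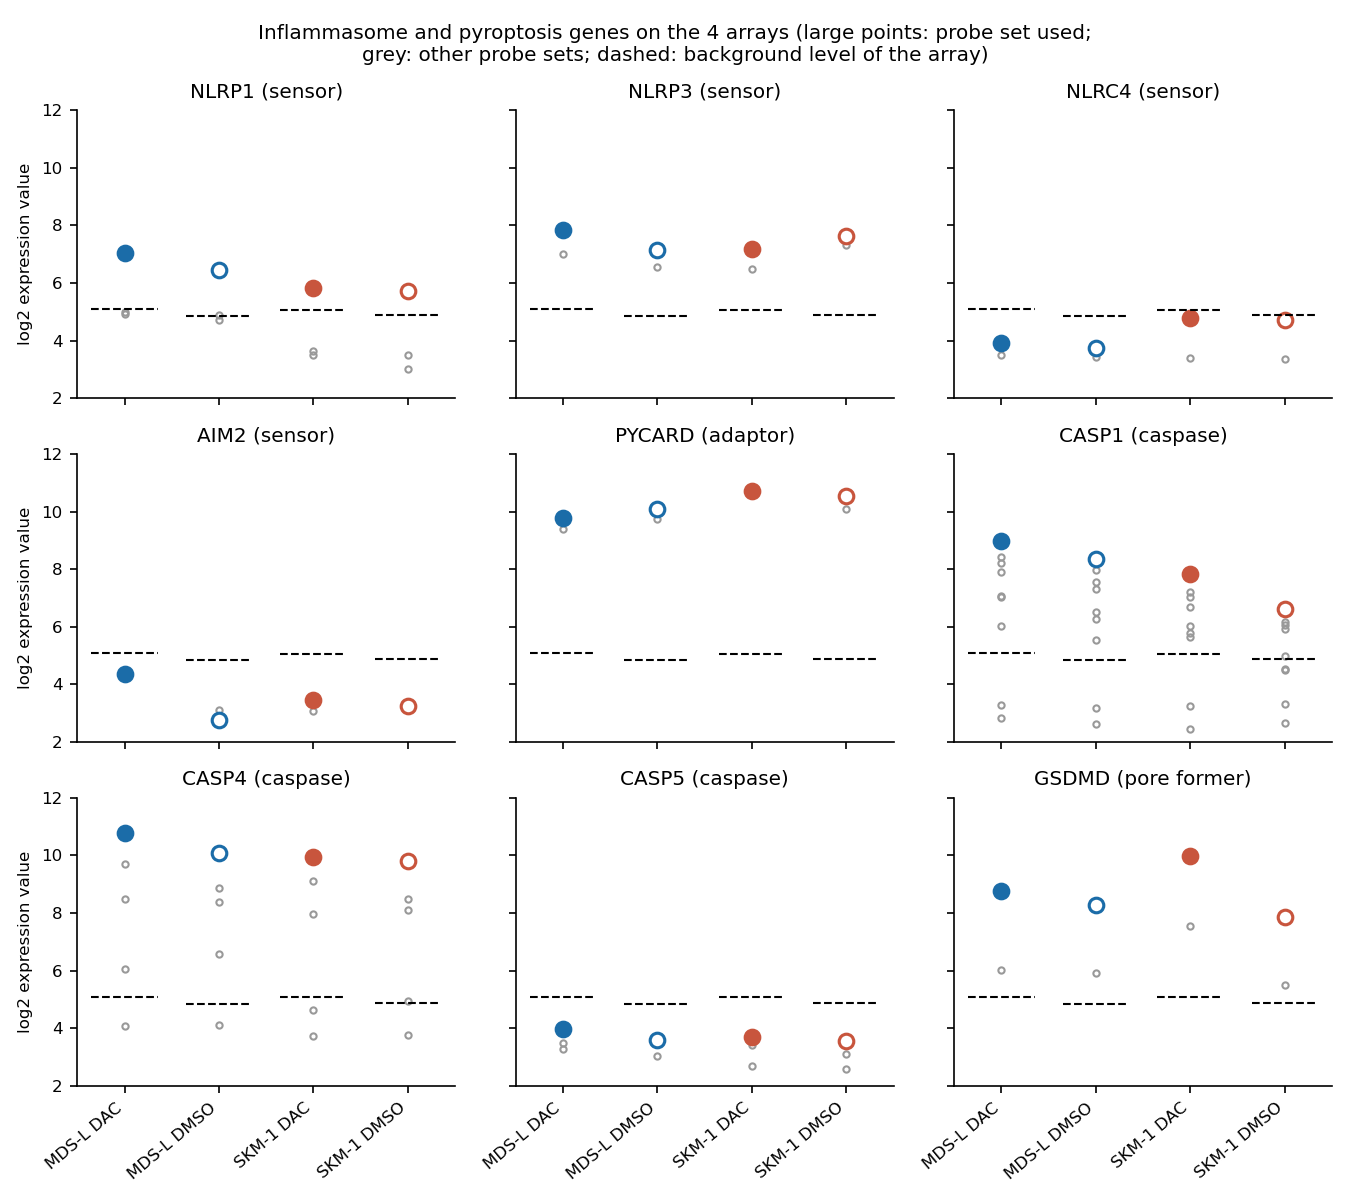
The log2 expression value of each of the 9 members on the 4 arrays, 1 array per condition, with DAC as filled and DMSO as open large points for the probe set used, small grey circles for the other probe sets, and dashed lines for the background level of each array. GSDMD stands at 9.99 in SKM-1 with DAC against 7.85 with DMSO, and NLRC4, AIM2 and CASP5 lie under the dashed lines throughout.

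CASP1, the protease of the inflammasome, was higher with DAC in both cell lines. It was 8.97 in MDS-L with DAC and 8.37 with DMSO, which is 1.52-fold higher. CASP1 in SKM-1 was 7.84 with DAC and 6.61 with DMSO, which is 2.34-fold higher. All 7 CASP1 probe sets above background in MDS-L were higher with DAC, by 0.47 to 0.75 on the log2 scale. In SKM-1, 5 probe sets were above background on both arrays, and these were higher by 0.64 to 1.23, of which 4 were at least 2-fold higher.

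CASP1 has a near copy of part of its sequence in the neighbouring gene CARD16, so probes can be shared. A probe set that the annotation gives to both was 10.85 with DAC and 10.17 with DMSO in MDS-L, and 8.58 with DAC and 7.25 with DMSO in SKM-1. CARD16 itself, which encodes a caspase-recruitment domain without a protease and can bind CASP1, was 9.31 with DAC and 8.38 with DMSO in MDS-L, 1.89-fold higher. In SKM-1 it was 6.37 with DAC and 3.49 with DMSO, at least 2.80-fold higher because the DMSO value was under background. CASP1 and CARD16 are therefore reported with this uncertainty.

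CASP4, a caspase that binds lipopolysaccharide, was 10.77 in MDS-L with DAC and 10.08 with DMSO, which is 1.61-fold higher. In SKM-1 it was 9.95 with DAC and 9.79 with DMSO, 1.12-fold higher, which is within the spread between probe sets. The probe sets did not all run one way. In MDS-L 5 of 6 were higher with DAC, and the differences ranged from −0.50 to 0.83, while in SKM-1 4 of the 5 above background on both arrays were higher, with a range of −0.16 to 0.61. CASP5, its closest relative, lay under background on every array, at 3.98 with DAC and 3.57 with DMSO in MDS-L and at 3.69 with DAC and 3.55 with DMSO in SKM-1.

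GSDMD, the pore former, had the widest difference of the 6 measured members. It was 9.99 in SKM-1 with DAC and 7.85 with DMSO, which is 4.38-fold higher. In MDS-L it was 8.76 with DAC and 8.26 with DMSO, 1.41-fold higher. The second GSDMD probe set gave 7.56 with DAC and 5.50 with DMSO in SKM-1, a difference of 2.06. In MDS-L it gave 6.01 with DAC and 5.92 with DMSO, a difference of 0.08 and within the spread between probe sets. Whether the DAC effect on GSDMD differs between the cell lines was not tested.

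**Figure D2:**
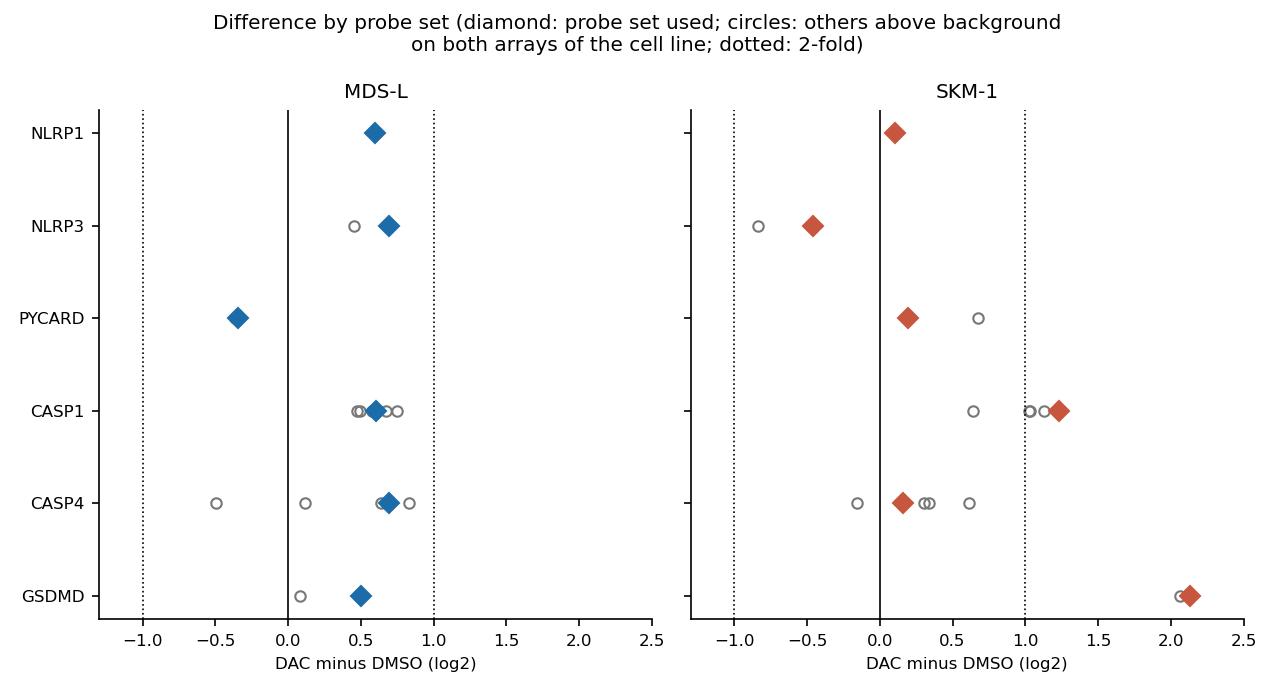
DAC minus DMSO on the log2 scale (horizontal axis) for every probe set of the 6 measured members (vertical axis) above background on both arrays of the cell line, with MDS-L on the left and SKM-1 on the right, diamonds for the probe set used and dotted lines at 2-fold. Both GSDMD probe sets lie at 2.06 and 2.13 in SKM-1, and the NLRP3 probe sets lie on opposite sides of 0 in the 2 lines.

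In MDS-L, none of the 6 measured members was 2-fold higher or lower with DAC, where 3.62% of the 12688 measured genes passed this fold upward and 3.18% downward. Of the 6 members, 5 were above 0 and 1 below, with a median difference of 0.60, where 53.7% of all measured genes were above 0 and their median was 0.04. In SKM-1, 2 of the 6 members, CASP1 and GSDMD, were at least 2-fold higher and none was 2-fold lower, where 2.71% of 12714 measured genes were higher and 1.43% lower. Again 5 were above 0 and 1 below, with a median of 0.18, where 54.8% of all measured genes were above 0 and their median was 0.05. The difference of GSDMD in SKM-1 was greater than that of 99.8% of measured genes and that of CASP1 greater than that of 98.7%. In MDS-L, NLRP3 and CASP4 each stood above 93.2% of genes, and PYCARD above 21.1%.

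**Figure D3:**
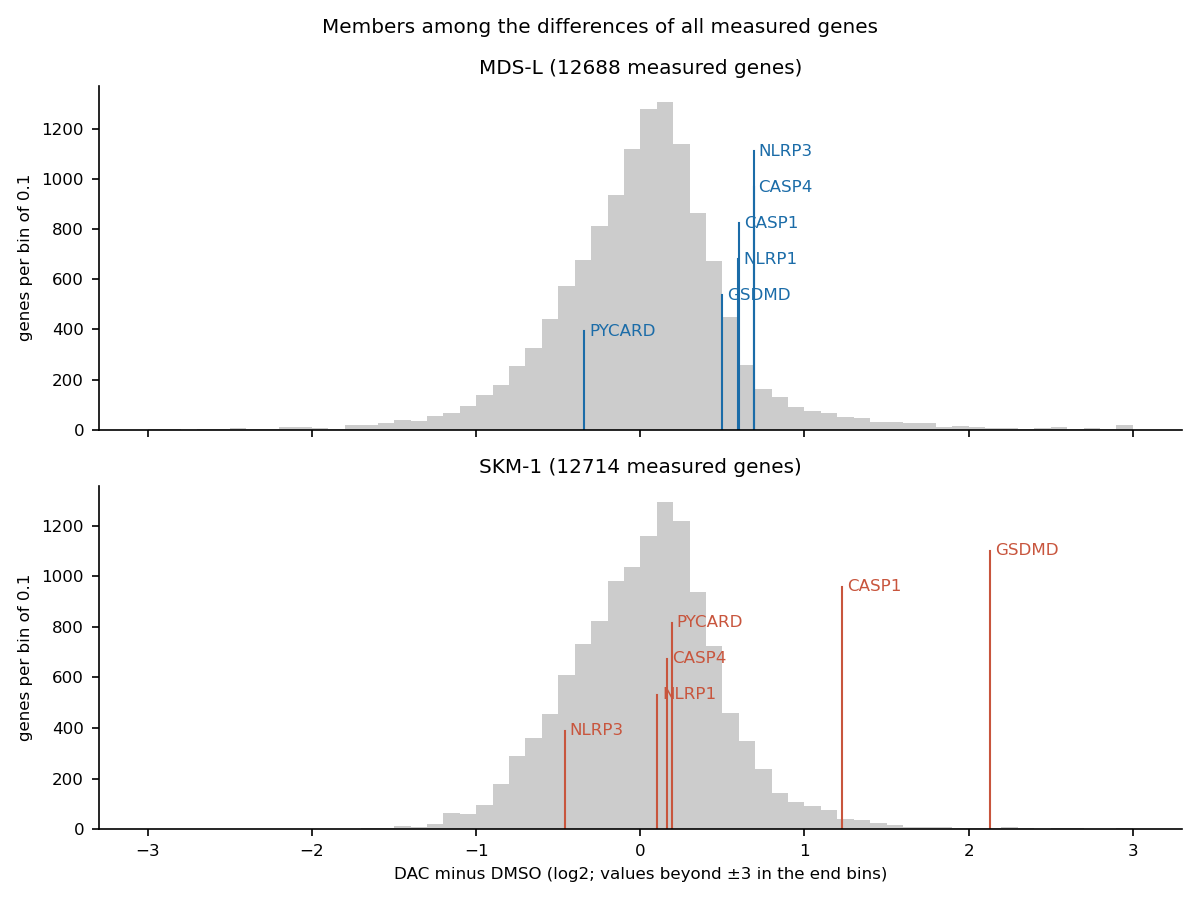
Number of measured genes (vertical axis) by DAC minus DMSO on the log2 scale (horizontal axis, bins of 0.1) in MDS-L above and SKM-1 below, with the 6 measured members marked by lines whose height has no meaning. In MDS-L 5 members lie between 0.50 and 0.69 and PYCARD at −0.34, and in SKM-1 CASP1 at 1.23 and GSDMD at 2.13 lie in the upper tail.

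A linear model over all 4 arrays took the cell lines as the only replication of the treatment. By limma with Benjamini-Hochberg adjustment, 0 of the 11984 genes measured in both lines, a share of 0%, passed an adjusted p of 0.05 for the DAC effect, and so none of the 6 members did. The lowest adjusted p of any gene was 0.357, and 1429 genes had an unadjusted p under 0.05, CASP1 and GSDMD among them. CASP1 had a DAC effect of 0.92 with a standard error of 0.27 (adjusted p = 0.413 by limma) and was higher in both lines. GSDMD had 1.32 with a standard error of 0.43 (adjusted p = 0.413 by limma), also higher in both. NLRP1 had 0.35, CASP4 had 0.43, NLRP3 had 0.12 and PYCARD had −0.08, and the lowest adjusted p of these by limma was 0.469, for NLRP1. The fit had 1 residual degree of freedom.

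The second comparison set the cell lines against each other. CASP1 was higher in MDS-L than in SKM-1 with both treatments, 2.20-fold with DAC and 3.39-fold with DMSO. NLRP1 was also higher in MDS-L, 2.34-fold with DAC and 1.66-fold with DMSO. By limma with Benjamini-Hochberg adjustment, the difference common to both treatments was 1.45 ± 0.27 (standard error) for CASP1 (adjusted p = 0.0163) and 0.98 ± 0.20 for NLRP1 (adjusted p = 0.0219). These were 2 of the 6 members, and 28.7% of all genes tested passed the same threshold. PYCARD was lower in MDS-L, by 0.69 ± 0.25 (adjusted p = 0.0958), and CASP4 was higher, by 0.56 (adjusted p = 0.158), neither of which passed in limma. For this comparison the 2 treatments were the only replication of a cell line. The standard errors and p-values therefore cover no variation between cultures of a line.

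The order of the lines for GSDMD and NLRP3 depended on the treatment. GSDMD was 2.34-fold higher in SKM-1 when both had DAC (8.76 for MDS-L against 9.99 for SKM-1), and 1.33-fold higher in MDS-L when both had DMSO. NLRP3 was 1.56-fold higher in MDS-L with DAC, whereas with DMSO it was 1.42-fold higher in SKM-1. The limma differences common to both treatments were −0.41 for GSDMD (adjusted p = 0.518) and 0.07 for NLRP3 (adjusted p = 0.898). Across the 4 arrays CASP1 ran from MDS-L with DAC, through MDS-L with DMSO and SKM-1 with DAC, to SKM-1 with DMSO. NLRP1 had the same order, but its SKM-1 values differed by less than the spread between probe sets. GSDMD ran from SKM-1 with DAC, through both MDS-L values, to SKM-1 with DMSO. CASP4 was highest in MDS-L with DAC, and its other 3 values, 10.08, 9.95 and 9.79, lay within 0.29 of each other.

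Beyond the members, a list of 77 genes of the same pathway was examined, of which 73 had a probe set. In MDS-L, 6 of the 50 measured list genes were at least 2-fold higher with DAC and none 2-fold lower, beside 3.62% and 3.18% of all genes. In SKM-1, 3 of 45 were at least 2-fold higher and none lower, beside 2.71% and 1.43%. The median difference of the list was 0.26 for MDS-L, against 0.15 for SKM-1. When only genes above background on both arrays were counted, DAC values were higher for 35 of 46 genes in MDS-L, and for 25 of 38 in SKM-1. Of all measured genes, 53.7% were above 0 in MDS-L, against 54.8% in SKM-1, and the sign counts of the groups described next stand beside those shares.

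Among the 16 sensors and co-factors, 11 were measured in each line and 1 was 2-fold higher in each. This was NLRP12, a NOD-like receptor described as a brake on NF-kB signaling, at 6.28 with DAC and 5.04 with DMSO in MDS-L, and 6.95 with DAC and 5.53 with DMSO in SKM-1. The DAC value of NLRP12 was thus higher by 2.36-fold in MDS-L, and by 2.67-fold in SKM-1. NLRP12 had 1 probe set, and its DMSO value in MDS-L lay close to the background level of 4.84. IFI16, a nuclear DNA sensor, was 7.50 with DAC and 6.61 with DMSO in SKM-1, 1.85-fold higher, and 10.04 with DAC and 9.99 with DMSO in MDS-L. Its 3 probe sets disagreed in size, with differences of 0.89 to 2.73 in SKM-1 and 0.06 to 0.73 in MDS-L. NLRC3, a negative regulator of innate signaling, was 1.49-fold higher with DAC in MDS-L, against 1.26-fold in SKM-1.

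Of the 5 ion channels and danger-signal inputs, none was 2-fold different. TXNIP, a redox protein that can bind NLRP3, was 10.35 with DAC and 10.97 with DMSO in SKM-1, 1.53-fold lower, and all 5 of its probe sets were lower there. In MDS-L it was 12.32 with DAC and 12.33 with DMSO. The ATP-gated channel P2RX7 was 1.26-fold higher in SKM-1, and the potassium channel KCNK6 was 1.36-fold higher in MDS-L. LRRC8A, a subunit of volume-regulated anion channels, was 1.19-fold higher in MDS-L, against 1.07-fold in SKM-1.

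Of the 6 genes for other gasdermins and membrane rupture, MDS-L had 2 measured and SKM-1 had 3, of which none was 2-fold different. GSDME was 6.27 with DAC and 6.55 with DMSO in SKM-1 and below background in MDS-L. GSDMB was 1.27-fold lower with DAC in MDS-L and at least 1.18-fold lower in SKM-1. NINJ1, which ruptures the membrane of dying cells, was 8.23 with DAC and 7.85 with DMSO in MDS-L, 1.30-fold higher. The SKM-1 values of NINJ1 were 8.61 with DAC and 8.02 with DMSO, a log2 difference of 0.59.

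The cytokines that leave through this route, with their receptors and antagonists, held 3 of the 6 genes that were 2-fold higher in MDS-L. The IL-1 receptor antagonist IL1RN was 9.16 with DAC and 6.99 with DMSO in MDS-L, 4.52-fold higher, while SKM-1 gave a bound of at least 1.78-fold. IL18RAP, a subunit of the IL-18 receptor, was 6.84 with DAC and 4.93 with DMSO in MDS-L, 3.75-fold higher. That DMSO value was close to the background level of 4.84, and 1 of the 2 IL18RAP probe sets was above background in MDS-L. IL1A was 6.53 with DAC and 3.57 with DMSO in MDS-L, at least 3.22-fold higher, and lay below background in SKM-1. IL1B, a substrate of CASP1 named here after its values were seen, was 12.87 with DAC and 12.10 with DMSO in MDS-L and 6.65 with DAC and 6.64 with DMSO in SKM-1. IL18, the other substrate, was lower with DAC in MDS-L, by 1.26-fold, but higher in SKM-1, by 1.51-fold.

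Of the inhibitors, 5 were measured in each line, and CARD16 was the 1 that was 2-fold higher in SKM-1. SERPINB1, an inhibitor of neutrophil proteases that also restrains inflammatory caspases, was lower with DAC in MDS-L, by 1.38-fold, but higher in SKM-1, by 1.22-fold. The guanylate-binding proteins, which coat bacteria in the cytosol and help CASP4 meet lipopolysaccharide, were measured for 4 of 7 in MDS-L, and all 4 were higher with DAC, beside 53.7% of all measured genes. GBP2 was 9.39 with DAC and 8.46 with DMSO, 1.91-fold higher, and GBP5 was 9.25 with DAC and 8.46 with DMSO, 1.72-fold higher. In SKM-1, GBP2 was 10.10 with DAC and 10.02 with DMSO, and GBP1 was 5.26 with DAC and 3.24 with DMSO, at least 1.30-fold higher.

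Of the other caspases and proteases of cell death, none was 2-fold different in either line. CASP8 was 1.39-fold higher with DAC in MDS-L. In SKM-1 it was 1.10-fold higher by the probe set used, but 5 of its 6 probe sets there were lower. CASP6 was 1.43-fold lower in MDS-L, and CASP9 was 1.21-fold higher in SKM-1. ELANE, neutrophil elastase, was 13.03 with DAC and 13.24 with DMSO in SKM-1 and below background in MDS-L.

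Priming factors make the members and IL1B available before activation. All 8 that were measured in MDS-L were higher with DAC, 2 of them at least 2-fold, and in SKM-1 5 of 7 were higher, 1 of them 2-fold, beside 53.7% and 54.8% of all measured genes above 0. LY96, the partner of TLR4 in binding lipopolysaccharide, was 8.47 with DAC and 6.27 with DMSO in MDS-L, 4.61-fold higher. LY96 in SKM-1 was 9.20 with DAC and 6.54 with DMSO, 6.32-fold higher. TLR4 itself was 1.32-fold higher with DAC in MDS-L, where 1 of its 3 probe sets was above background. That probe set was 5.62 with DAC and 5.22 with DMSO, near the background levels of 5.09 and 4.84. In SKM-1, by contrast, TLR4 was 8.20 with DAC and 9.08 with DMSO, 1.84-fold lower, and all 3 of its probe sets were lower. IRF8, a transcription factor of monocyte development, was 6.53 with DAC and 4.40 with DMSO in MDS-L, at least 3.21-fold higher, and below background in SKM-1.

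**Figure D4:**
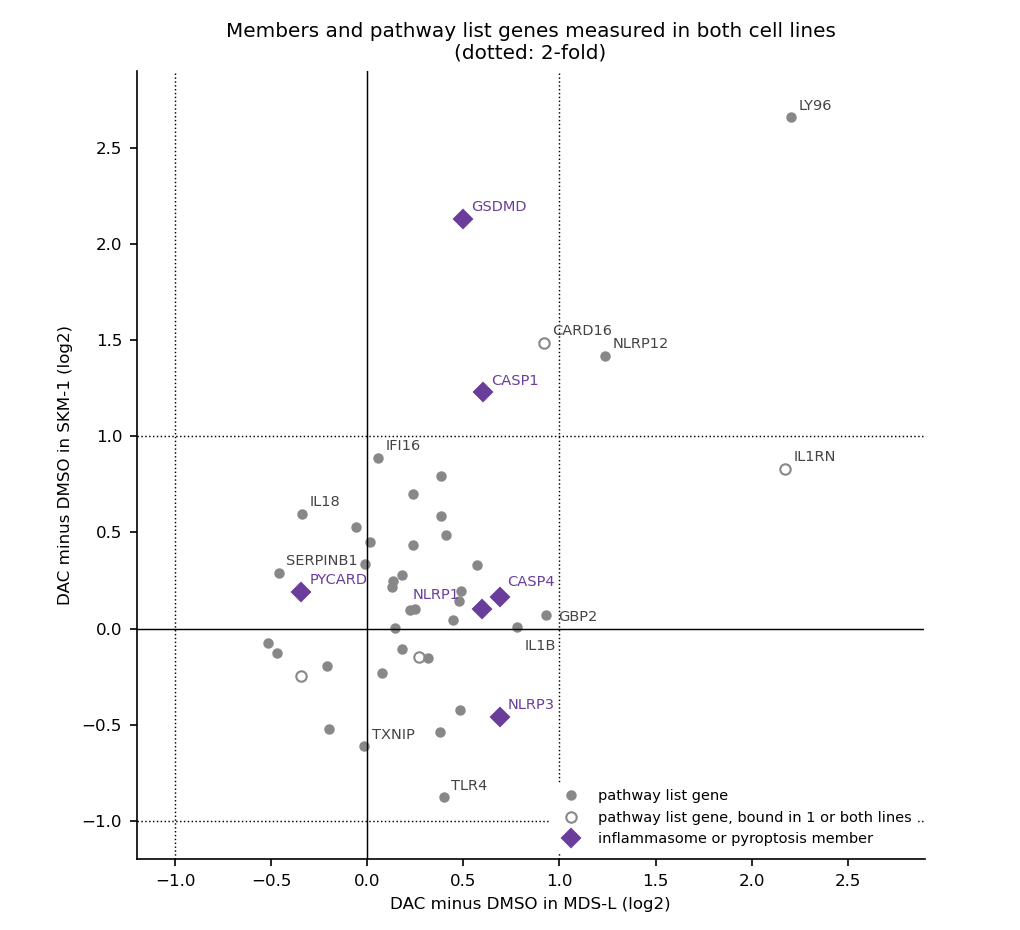
DAC minus DMSO on the log2 scale in MDS-L (horizontal axis) and SKM-1 (vertical axis) for the 6 measured members (diamonds) and 40 pathway list genes measured in both lines, of which the 4 open circles are bounds (NAIP and IL18RAP, whose SKM-1 difference is no bound, are left out), with dotted lines at 2-fold. LY96 and NLRP12 lie beyond 2-fold in both lines, GSDMD and CASP1 in SKM-1 alone, and NLRP3 and TLR4 lie above 0 in MDS-L and below 0 in SKM-1.

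The genes whose values over the 4 arrays ran most like those of GSDMD and CASP1 were then found among 13417 genes. Each profile was centred on its own mean, and likeness was the root mean square distance on the log2 scale, a description over 4 arrays with no test. For GSDMD the nearest were H2BC11 at 0.152, PARP10 at 0.159, H4C8 at 0.163, MX2 at 0.166 and IRF7 at 0.177. For CASP1 they were NUDT14 at 0.0647, GAS7 at 0.0662, ALDH4A1 at 0.0787, HVCN1 at 0.128 and MYO1G at 0.140. IRF7, for example, was 11.02 in SKM-1 with DAC and 8.49 with DMSO, and 9.64 in MDS-L with DAC and 8.87 with DMSO. GAS7 was 6.78 in SKM-1 with DAC and 5.49 with DMSO, and 7.73 in MDS-L with DAC and 7.22 with DMSO.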

How the data were processed

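The authors hybridised RNA to PrimeView arrays, and 1 log2 expression value per probe set and array was deposited for 49395 probe sets. Sources differ on how: the study's methods state RMA in Partek (version not given) and RNeasy columns, while the submitters' notes list MAS5 and the labels Trizol. Values lay between 2.11 and 14.99, and once sorted the 4 arrays differed by at most 0.18, so no further normalization was applied. No column belonged to another series' sample. Arrays have no read depth, and precision is limited by their number, 1 per condition.

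Of 46826 annotated probe sets, 44994 had 1 gene symbol and were used. The annotation names no genome build, so coordinates are those of the RefSeq promoters. The brightest probe set by mean stood for each gene. To count as measured in a line, a gene had to exceed background on at least 1 of its 2 arrays; lower values were set to the background level, so a fold from such a value is a lower bound. The background level was higher with DAC, so for NAIP and IL18RAP in SKM-1 the raised difference is positive although only the DMSO value was above it, and it is no bound. Within a cell line a gene at least 2-fold different was counted, with no test. limma 3.58.1 in R 4.3.3 fitted cell line and treatment with a mean-variance trend and 1 residual degree of freedom, adjusted by Benjamini-Hochberg at 0.05. The code was also run on simulated data, in which changed genes moved equally in both lines and by more than any member did here. That run does not measure how well the fit finds differences of the members' size. Sums and figures used Python 3.11.15, pandas 2.3.3, numpy 2.4.6 and matplotlib 3.10.9.

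All members were named. Of the pathway list, genes at least 2-fold different in either line and the 2 with the largest difference per sublist and line were named, and the 5 nearest profiles of the 2 members with the largest difference. Members and lists were chosen with earlier results of these data known. Alternatives were folds of 1.5 and 3, the 99th percentile as background, no background filter, quantile normalization, fold changes centred on their median, no probe sets ending in _s_at or _x_at, the median over probe sets, limma without trend, limma on all genes with no raised values, and an adjusted p of 0.15. Protein sequences were not used here.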

Additional observations from a re-analysis of the deposited data

Results flagged for a closer look

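Among the members and the list genes chosen by the naming rule, 2 members, and 3 list genes whose differences were wider than the spread between probe sets in both lines, differed in opposite directions with DAC in MDS-L and SKM-1. The difference between the lines was not tested for any of them, because each condition had 1 array. For NLRP3 the DAC minus DMSO difference in MDS-L less that in SKM-1 was 1.15 on the log2 scale, and for TLR4 it was 1.28. For PYCARD it was −0.53, for IL18 it was −0.94 and for SERPINB1 it was −0.75. The SKM-1 difference of PYCARD, 0.19 by the probe set used, lay within the spread between probe sets. The MDS-L difference of TLR4 rests on the 1 of its 3 probe sets that was above background there. CARD8 and NEK7, outside the naming rule and picked after their values were seen, also ran in opposite directions by the probe set used. The CARD8 difference was 0.38 in MDS-L against −0.54 in SKM-1, and that of NEK7 was 0.48 against −0.42. For CARD8 the probe sets disagreed. Their MDS-L differences spanned −0.43 to 0.42, with 5 of 10 below 0. The SKM-1 differences spanned −0.84 to 1.29, with 7 of 10 below 0. For NEK7, 1 of 3 probe sets fell below 0 for MDS-L, at −0.14, while all 3 did for SKM-1.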

How the results depend on the processing

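Within each cell line, the direction of the member differences held in all 70 values recomputed, but many of these had little or no room to turn. The 99th percentile and the lack of a filter left each measured member difference unchanged. Leaving out probe sets ending in _s_at or _x_at changed CASP4 alone, and centring shifted all values of a line by the same small amount. NLRP1 in SKM-1 was not measured with the 99th percentile or the median over probe sets. The limma DAC effect common to both lines did turn for PYCARD, to 0.0050 under quantile normalization. Taking the median over probe sets, it turned to 0.04 for PYCARD and −0.04 for NLRP3. With the median over probe sets, NLRP1 in MDS-L was 0.20 and CASP4 in SKM-1 was 0.61, and the members' median in SKM-1 was 0.61 over 5 members. Members past the fold upward numbered 4 in MDS-L at a fold of 1.5 and 1 (AIM2) with no background filter, and 1 in SKM-1 at a fold of 3. Pathway list genes past it in MDS-L numbered 11 at a fold of 1.5 and 2 with the 99th percentile as background. In SKM-1 they numbered 9 at a fold of 1.5, 1 at a fold of 3, 1 with the 99th percentile and 5 with no filter, and list genes past it downward numbered 2 at a fold of 1.5 and 1 with the median over probe sets. Under that median, members with a cell line difference in limma numbered 1, since NLRP1 was no longer measured in both lines. CASP1's adjusted p for the DAC effect ranged from 0.240 to 0.517 over the limma alternatives. For the cell line difference it ranged from 0.00476 to 0.0224. No array could be left out, since each condition had 1 and no residual degree of freedom would be left. The limma fit already paired DAC with DMSO within each cell line, and the labels give no replicate number for a further block.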
